A study of Mus musculus with 6 samples.

Results

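The ephrin-B ligands (Efnb1, Efnb2 and Efnb3) and the EphB receptors (Ephb1, Ephb2, Ephb3, Ephb4 and Ephb6) were described across 6 RNA-seq libraries of whole mouse kidney at E13.5. The genes were chosen by symbol. All 8 symbols, each a protein-coding gene whose GRCm38 span is given with its values, were found among the 22394 genes of the deposited table, and all 8 passed the filter on low values that left 16933 genes for testing. The 3 mutant libraries came from embryos labelled Foxd1Cre;Ptch1 (flox/-), which carried Foxd1Cre with 1 floxed and 1 null Ptch1 allele. The 3 control libraries came from littermates labelled Ptch1 (flox/+), with 1 floxed and 1 wild-type allele, and their labels name no Cre. Each group had an n of 3. Foxd1Cre expresses Cre recombinase in the renal stromal progenitors and the cells they give rise to, and Ptch1 encodes the receptor that holds Hedgehog signalling off, so the comparison asks how the kidney differs when that brake is lost in the stroma. The null allele was carried by every cell of the mutants, and its effect cannot be told apart from that of the deletion or of Cre itself. By the series' design text the paired kidneys were taken whole, so that stroma, nephron, ureteric bud and vessels were measured together.

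Ephrin-B ligands are membrane-spanning proteins, and EphB receptors are receptor tyrosine kinases, so a signal passes only between touching cells. It runs forward into the cell that bears the receptor and in reverse into the cell that bears the ligand, and it commonly makes cells repel one another and sort apart. In blood vessels Efnb2 marks arterial and Ephb4 venous endothelium. Efnb1 lies on the X chromosome, Efnb3 is best known as a repellent for growing axons, Ephb2 and Ephb3 position cells in the intestinal crypt, and Ephb6 lacks kinase activity.

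The 3 ligands end in a closely similar intracellular tail, through which reverse signalling runs. It is shown here because reads from so similar a stretch could in principle be assigned to the wrong gene. The lines give the last 99 coding bases, stop codon included, from GENCODE M21 transcripts on GRCm38, at chrX:99147429-99147527 (plus strand) for Efnb1, chr8:8620588-8620686 (minus strand) for Efnb2 and chr11:69555860-69555958 (minus strand) for Efnb3. Capitals mark the 77 positions at which all 3 genes have the same base.
Efnb1: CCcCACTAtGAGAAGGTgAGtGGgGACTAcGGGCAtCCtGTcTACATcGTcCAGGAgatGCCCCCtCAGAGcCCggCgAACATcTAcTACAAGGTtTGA
Efnb2: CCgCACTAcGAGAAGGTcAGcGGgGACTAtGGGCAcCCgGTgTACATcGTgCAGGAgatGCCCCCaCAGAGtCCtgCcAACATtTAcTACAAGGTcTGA
Efnb3: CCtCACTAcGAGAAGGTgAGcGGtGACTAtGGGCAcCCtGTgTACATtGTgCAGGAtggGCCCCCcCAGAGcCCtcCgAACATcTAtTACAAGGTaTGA
Efnb1 and Efnb2 were identical at 84 of the 99 bases (84.8%), and all 15 differences fell on the third position of a codon. Efnb3 shared 82 bases with Efnb1 and 84 with Efnb2. The longest identical run between any pair of ligand transcripts was 22 bases (Efnb1 and Efnb3), and no window of 50 bases in the transcript searched for each ligand occurred in a transcript of another gene. Among the receptors the longest run shared with another of the 8 genes was 38 bases, between Ephb1 and Ephb3. For Ephb2, 28 of 10853 windows (0.258%) occurred in transcripts of other genes. For Ephb1 it was 109 of 4618 windows (2.36%), all from the antisense long noncoding gene Gm26846, which shares 152 exon bases with it. Zan, antisense to Ephb4, shares 33 exon bases and had a mean of 0.026 FPKM in controls and 0.0318 FPKM in mutants. The sources used here do not say whether counting used strand.

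The values are FPKM, reads scaled to library depth and gene length, so levels can be compared between genes. In controls Efnb1 was the highest of the 8 genes at 76.4 ± 23.1 FPKM (mean ± SD, n = 3), followed by Ephb4 at 41.6 ± 3.33, Efnb3 at 20.7 ± 8.41 and Efnb2 at 16.4 ± 4.19 FPKM. Ephb3 (6.13 ± 0.723 FPKM), Ephb2 (5.53 ± 1.40 FPKM) and Ephb6 (5.16 ± 0.557 FPKM) formed a lower tier, and Ephb1 was lowest at 1.99 ± 0.16 FPKM. The ranges of Efnb3 and Efnb2 overlapped among the controls, as did those of Ephb3 and Ephb2 and of Ephb2 and Ephb6, so these neighbours were not separated beyond their spread. The remaining steps down were clear of overlap and held in 3 of 3 controls. In mutants Efnb2 (21.7 FPKM) stood above Efnb3 (19.3 FPKM) on average, again with overlapping ranges, and the rest of the order was as in controls. Even the lowest gene was well counted, with 194 to 650 reads per library for Ephb1 and 3740 to 15995 for Efnb1.

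**Figure D1:**
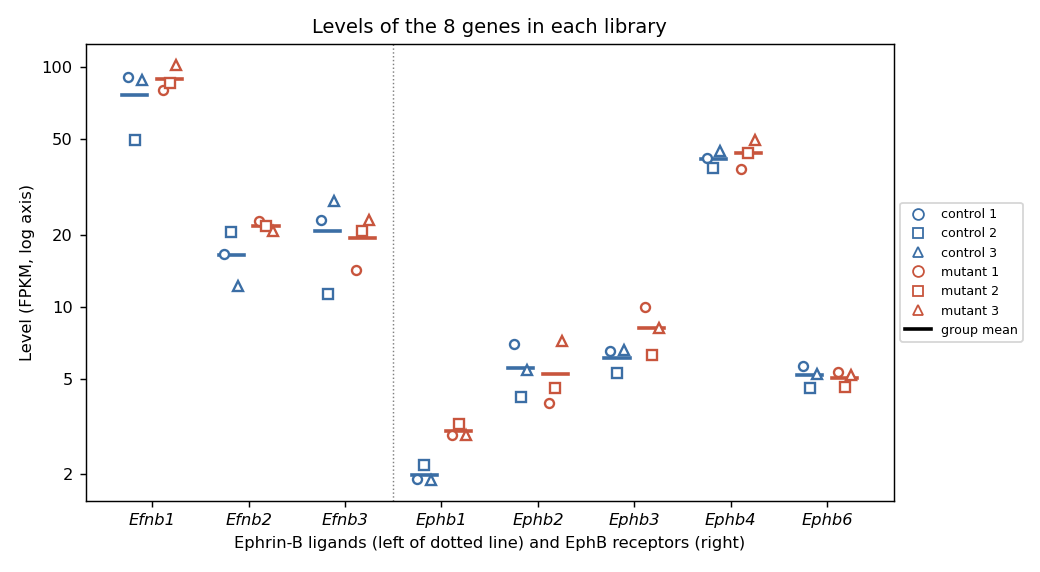
FPKM (log axis) of each gene in each of the 6 libraries, with circles, squares and triangles for libraries 1, 2 and 3 of a group, controls in blue and mutants in red, and a bar at each group mean. The groups are apart for Ephb1, barely apart for Efnb2 (lowest mutant 20.7 FPKM, highest control 20.5 FPKM) and overlap for the other 6 genes. Control 2 lies lowest for Efnb1 (49.8 FPKM) and Efnb3 (11.3 FPKM).

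Efnb1 made up 61.0% to 70.1% of the summed ligand FPKM in every library, and Ephb4 made up 63.0% to 70.2% of the summed receptor FPKM. Summed ligand FPKM was 130, 81.6 and 128 in controls 1 to 3 and 117, 128 and 146 in mutants 1 to 3. The mean log2 ligand sum was 0.23 higher in mutants, and 0.00745 higher without control 2. Summed receptor FPKM was 63.0, 54.3 and 63.9 in the controls and 59.6, 62.7 and 73.2 in the mutants. The groups overlapped for both sums (exact two-sided permutation test, p = 0.6 for each, where 0.1 is the smallest p that 3 against 3 libraries can give). The ratio of ligand to receptor FPKM was 1.97 to 2.04 in the mutants, and 1.5 to 2.07 in the controls, with control 2 (1.5) below the other 5 libraries.

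None of the 8 genes passed limma over all 16933 genes at an adjusted p under 0.05, where 0.307% of genes passed (0.219% higher and 0.0886% lower in mutants). Efnb2 and Ephb1 had an unadjusted p under 0.05 (9.63% of genes did, 5.26% with higher mutants), and the lowest mutant of each exceeded the highest control. Groups failed to overlap for 16.7% of all genes, with the mutants higher for 7.57% and lower for 9.09%, so 2 of 8 genes is a count to be read against that background. Of the 8 fold changes 5 were positive, beside 49.1% of all genes, and their median log2 fold change was 0.17 against -0.00739 over all genes tested. Without control 2, the library that lies apart from the others on the first principal component (75.8 against -24.6 to 8.49), 4 of the 8 were positive and the median was -0.00134. Leaving out control 1 instead made 8 of 8 positive with a median of 0.26, and leaving out mutant 1 made 7 positive with a median of 0.20, while without mutant 3 it was 4 with a median of 0.07. Control 2 was also the only control with a high level of Ddx3y, a gene of the Y chromosome. It had 17.8 FPKM, against 0.0598 and 0.0177 in controls 1 and 3 and 13.9 to 16.2 in the mutants. In every value given here without control 2, sex and genotype therefore cannot be told apart. The authors' deposited table also called none of the 8, gave 8 of 8 a positive fold change (median 0.31), and called 4.61% of the genes to which it gave an adjusted p. Its fold changes are not differences of group means, since control 1 carried a weight near 0 in them (0.0039 by least squares), so they are plotted beside the limma values only for comparison.

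Efnb2 (chr8:8617434-8661242, minus strand), the arterial ligand, was at 16.7, 20.5 and 12.1 FPKM in controls 1 to 3 and at 22.7, 21.7 and 20.7 FPKM in mutants 1 to 3. The mutants lay close together and just above control 2, while the controls were spread out. The ratio of group means was 1.32 and the log2 fold change 0.43 (SE 0.18, 95% interval 0.01 to 0.85, limma unadjusted p = 0.044 and adjusted p = 0.509). Single controls moved this value, to 0.23 without control 3 and to 0.61 without control 2. The unadjusted limma p was 0.00283 without control 2 and 0.0659 to 0.173 when any other single library was left out. Within the controls Efnb2 was ordered as the ureteric bud markers were, and also as the early nephron epithelium markers were. Both lists were picked from all the lists compared, and an order of 3 libraries is easily shared. Relative to the control mean, on the log2 scale, Efnb2 stood at 0.05, 0.35 and -0.40 in controls 1 to 3. The mean of the ureteric bud markers stood at -0.02, 0.45 and -0.43, and that of the early nephron markers at -0.04, 0.24 and -0.20. The mean of the arterial markers was ordered otherwise, at -0.05, 0.09 and -0.04. In mutants 1 to 3 the ureteric bud markers stood at 0.75, 0.07 and 0.13, and the early nephron markers at 0.23, -0.32 and -0.14. Efnb2 stood at 0.50, 0.43 and 0.37 there. The part of either tissue in the Efnb2 values was not tested.

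Efnb1 (chrX:99136130-99148991, plus strand), the X-linked ligand, was at 90.8, 49.8 and 88.5 FPKM in controls 1 to 3 and at 80.4, 85.8 and 103 FPKM in mutants 1 to 3. Control 2 was far below the other 5 libraries, and the remaining controls lay within the mutant range. The log2 fold change was 0.27 (SE 0.23, 95% interval -0.26 to 0.81, limma adjusted p = 0.665), and without control 2 it was -0.00865 (SE 0.15). Xist, made from the inactive X chromosome, was at 72.9 and 53.3 FPKM in controls 1 and 3, where Ddx3y, a gene of the Y chromosome, was at 0.0598 and 0.0177 FPKM. Control 2 and mutants 1 and 2 had Xist at 0.0471 to 0.206 FPKM and Ddx3y at 15.8 to 17.8 FPKM, and mutant 3 had 6.19 FPKM of Xist beside 13.9 FPKM of Ddx3y. Ddx3y was thus high in control 2 alone among the controls and in every mutant, so sex was not balanced between the groups. The part of sex in these values was not tested.

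Efnb3 (chr11:69554092-69560205, minus strand) was the most variable of the 8 genes in controls. It was at 23.0, 11.3 and 27.7 FPKM in controls 1 to 3 and at 14.2, 20.7 and 23.0 FPKM in mutants 1 to 3, so control 2 and mutant 1 were the low libraries of their groups. The log2 fold change was -0.03 (SE 0.32, 95% interval -0.77 to 0.70, limma adjusted p = 0.975), so the data allow a mutant level from 0.587 to 1.63 times that of the controls. The same libraries had the lowest means of the cortical stroma markers in their groups, -0.59 in control 2 and -0.20 in mutant 1 relative to the control mean on the log2 scale, against 0.21 to 0.31 in the other 4. They also had the lowest nephron progenitor means of their groups (-0.32 and -0.22). Their ureteric bud means (0.45 and 0.75) and early nephron epithelium means (0.24 and 0.23) were the highest, so stroma was not singled out. Whether tissue makeup sets the Efnb3 level was not tested, and in whole tissue fewer cells of a type and less RNA per cell cannot be told apart.

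Ephb1 (chr9:101922128-102354693, minus strand), a receptor known from axon guidance, showed the smallest p of the 8 genes. It was at 1.90, 2.17 and 1.88 FPKM in controls 1 to 3 and at 2.90, 3.22 and 2.91 FPKM in mutants 1 to 3. The lowest mutant was above the highest control, and the spread within each group was small beside the gap. The ratio of group means was 1.52, and the log2 fold change was 0.60 (SE 0.16, 95% interval 0.24 to 0.96), with an unadjusted p of 0.00472 and an adjusted p of 0.259 in limma. The unadjusted p stayed between 0.00282 and 0.0245 when any 1 library was left out. Ephb1 had the fewest reads of the 8, and counting error alone was 7.18% in the library with 194 reads. Ephb1 made up 2.95% to 4.0% of receptor FPKM in the controls and 3.98% to 5.13% in the mutants, so that its share overlapped between the groups.

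The proximal promoters of Efnb2 and Ephb1, the pair of genes whose groups did not overlap, are given as RefSeq has them on GRCm38.p6, as the 250 bases upstream of the annotated start, 5′ to 3′ on the gene's strand. Capitals mark GGGCGG or its reverse complement CCGCCC, the GC box bound by Sp1-type factors. The windows are chr8:8661243-8661492 (minus strand) for Efnb2 and chr9:102354694-102354943 (minus strand) for Ephb1.
Efnb2: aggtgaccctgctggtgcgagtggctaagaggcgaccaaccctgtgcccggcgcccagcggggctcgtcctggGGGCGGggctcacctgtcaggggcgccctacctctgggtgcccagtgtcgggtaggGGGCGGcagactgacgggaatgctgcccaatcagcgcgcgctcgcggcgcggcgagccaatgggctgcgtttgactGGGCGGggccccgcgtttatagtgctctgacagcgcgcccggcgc
Ephb1: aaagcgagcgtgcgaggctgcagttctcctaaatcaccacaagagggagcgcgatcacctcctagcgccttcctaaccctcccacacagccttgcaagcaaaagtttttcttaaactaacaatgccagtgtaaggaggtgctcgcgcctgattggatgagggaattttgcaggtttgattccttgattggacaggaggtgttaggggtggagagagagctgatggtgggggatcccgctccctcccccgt
The Efnb2 window held 3 GC boxes and was 72.0% G or C. The Ephb1 window held 0 and was 54.0% G or C, near the median of 52.4% over 32851 windows of this length. A GC box on either strand occurred in 32.7% of those windows. The letters GACCACCCA, the core recognised by the Gli factors that act at the end of the Hedgehog pathway, were searched on both strands, occurred in 0.225% of all windows, and were in neither of these windows nor in those of the other 5 members with a RefSeq entry (Efnb1, Ephb2, Ephb3, Ephb4 and Ephb6).

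Ephb2 (chr4:136647539-136835988, minus strand) was at 6.98, 4.19 and 5.42 FPKM in controls 1 to 3 and at 3.94, 4.58 and 7.16 FPKM in mutants 1 to 3. Control 2 and mutant 1 were again the lowest of their groups, and the groups overlapped throughout. The log2 fold change was -0.10 (SE 0.25, 95% interval -0.67 to 0.48, limma adjusted p = 0.895), and its sign changed when control 1 or mutant 1 was left out (0.0857 and 0.0821).

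Ephb3 (chr16:21204755-21223305, plus strand) was at 6.53, 5.29 and 6.56 FPKM in controls 1 to 3 and at 9.93, 6.30 and 8.13 FPKM in mutants 1 to 3. Mutants 1 and 3 were above every control and mutant 2 was within the control range. The log2 fold change was 0.39 (SE 0.19, 95% interval -0.04 to 0.81, limma unadjusted p = 0.068 and adjusted p = 0.542). It was 0.23 without mutant 1, the highest library, and 0.56 without mutant 2.

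Ephb6 (chr6:41605482-41620509, plus strand), the receptor without kinase activity, had the smallest ratio of highest to lowest library among the 8 genes (1.24). It was at 5.66, 4.56 and 5.25 FPKM in controls 1 to 3 and at 5.30, 4.61 and 5.17 FPKM in mutants 1 to 3. Its log2 fold change was -0.03 (SE 0.15, 95% interval -0.37 to 0.31, limma adjusted p = 0.944), so the data allow a level from 0.773 to 1.24 times that of the controls.

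Ephb4 (chr5:137350109-137378669, plus strand), the venous receptor and the most abundant of the 5 receptors, was at 41.9, 38.1 and 44.8 FPKM in controls 1 to 3 and at 37.5, 44.0 and 49.9 FPKM in mutants 1 to 3. The groups overlapped, with mutant 1 the lowest and mutant 3 the highest of all 6 libraries. The log2 fold change was 0.07 (SE 0.14, 95% interval -0.25 to 0.39, limma adjusted p = 0.866), which puts the mutant level between 0.841 and 1.31 times that of the controls.

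**Figure D2:**
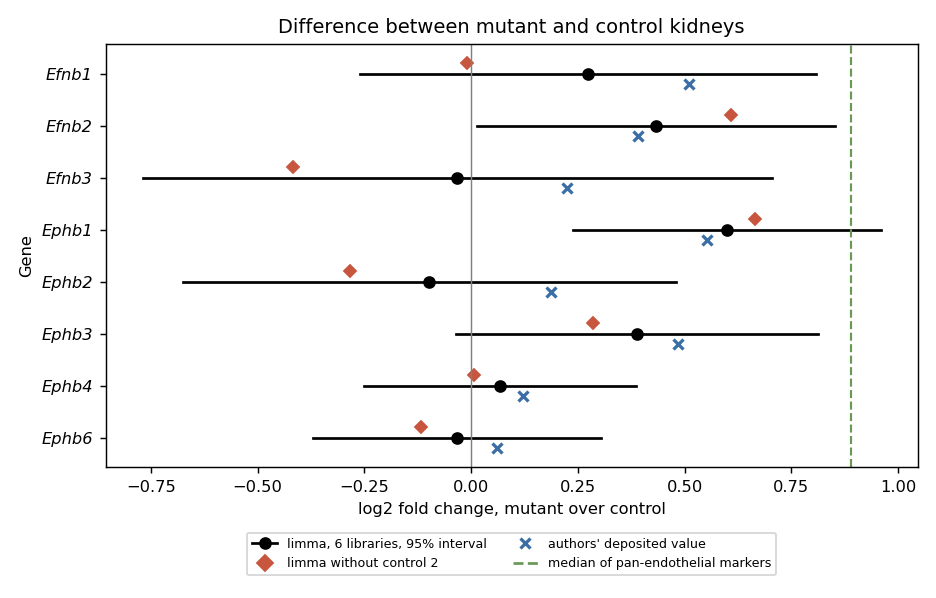
Log2 fold change of mutant over control for each gene, as black points with 95% intervals from limma on 6 libraries, red diamonds from limma without control 2 and blue crosses from the authors' deposited table. The intervals of Efnb2 and Ephb1 lie above 0, and Efnb1 moves from 0.27 to -0.00865 without control 2. The dashed line at 0.89 is the median of 16 pan-endothelial markers, where the median of all genes tested was -0.00739.

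The markers of endothelium, the cell type for which Efnb2 and Ephb4 are best known, were measured beside them. All 16 pan-endothelial markers had positive fold changes, 3 of them passed limma over all genes (Tie1 at an adjusted p of 0.0175, Esam at 0.0246 and Cldn5), 14 had groups that did not overlap, and their median log2 fold change was 0.89. Without control 2 the count that passed limma was 7 of 16, and it was 2 for each of the arterial and venous lists described next. Their FPKM summed to between 230 and 243 in each control and between 399 and 474 in each mutant, and no marker was at 0 throughout. The most abundant were Cldn5, a tight junction protein (34.8 ± 3.19 and 63.4 ± 6.27 FPKM, adjusted p = 0.0395 in limma), Egfl7, a protein secreted by endothelium (36.2 ± 3.65 and 61.1 ± 7.21 FPKM, adjusted p = 0.0797 in limma), and Plvap, a component of capillary pores (27.6 ± 6.06 and 52.3 ± 6.76 FPKM, adjusted p = 0.105 in limma). The 95% intervals of 7 of the 8 ephrin-B and EphB genes lay wholly below that median, and Ephb1 was the exception. The share of all genes with such an interval was not taken. The median log2 fold change over all genes tested was itself far below that median, at -0.00739. The count therefore cannot be read as particular to this family or as common to most genes.

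The level of each gene relative to these markers (its log2 normalized count minus the mean log2 normalized count of the 16 markers in the same library) mostly restates their higher level in mutants. Over all genes tested the median difference in this relative level was -0.84, and 70.2% of genes had every mutant below every control. For Ephb4 the relative level was 2.41, 2.42 and 2.49 in controls 1 to 3 and 1.62, 1.74 and 1.67 in mutants 1 to 3. The difference of -0.76 (exact two-sided permutation test, p = 0.1, the smallest that 3 against 3 can give) was thus near the median of all genes, and 5 of the 8 genes (Efnb1, Efnb3, Ephb2, Ephb4 and Ephb6) had every mutant below every control. For Efnb2 it was 1.23, 1.67 and 0.76 in controls and 1.04, 0.86 and 0.55 in mutants, with overlapping groups and a difference of -0.40 (exact two-sided permutation test, p = 0.3) that ranged from -0.63 without control 3 to -0.17 without control 2. The part of cell numbers in these values was not tested.

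Arterial and venous markers were set beside their ligand and receptor in turn. Of 11 arterial markers 10 had positive fold changes, 6 had every mutant above every control (7.57% of all genes did), and the median was 0.57. The 1 that passed limma was Acvrl1, a receptor of the TGF-beta family, with an adjusted p of 0.0314. The most abundant members, Cxcr4 (29.9 ± 8.93 and 34.8 ± 3.46 FPKM), Nrp1 (19.7 ± 6.79 and 28.2 ± 4.16 FPKM) and Hey1 (18.8 ± 9.03 and 14.8 ± 1.76 FPKM), had overlapping groups and are expressed outside arteries too. Of 10 venous and lymphatic markers 9 were tested, 8 had positive fold changes, 5 had every mutant above every control, 1 passed limma, and the median was 0.64. That gene was Emcn, a sialoglycoprotein of veins and capillaries, which rose from 9.38 ± 0.944 to 23.3 ± 2.23 FPKM (adjusted p = 0.0105 in limma). Aplnr, the apelin receptor, was at 12.6 ± 1.59 and 28.6 ± 6.44 FPKM (adjusted p = 0.051 in limma), and Nr2f2, which also marks stroma, at 149 ± 30.6 and 176 ± 9.21 FPKM with overlapping groups.

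The ratio of the arterial ligand to its venous receptor did not separate the genotypes. Efnb2 FPKM was 0.397, 0.538 and 0.271 of Ephb4 FPKM in controls 1 to 3 and 0.605, 0.493 and 0.416 in mutants 1 to 3, with overlapping groups. On the log2 scale the difference was 0.37 (exact two-sided permutation test, p = 0.4), and it ranged from 0.11 without control 3 to 0.60 without control 2.

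**Figure D3:**
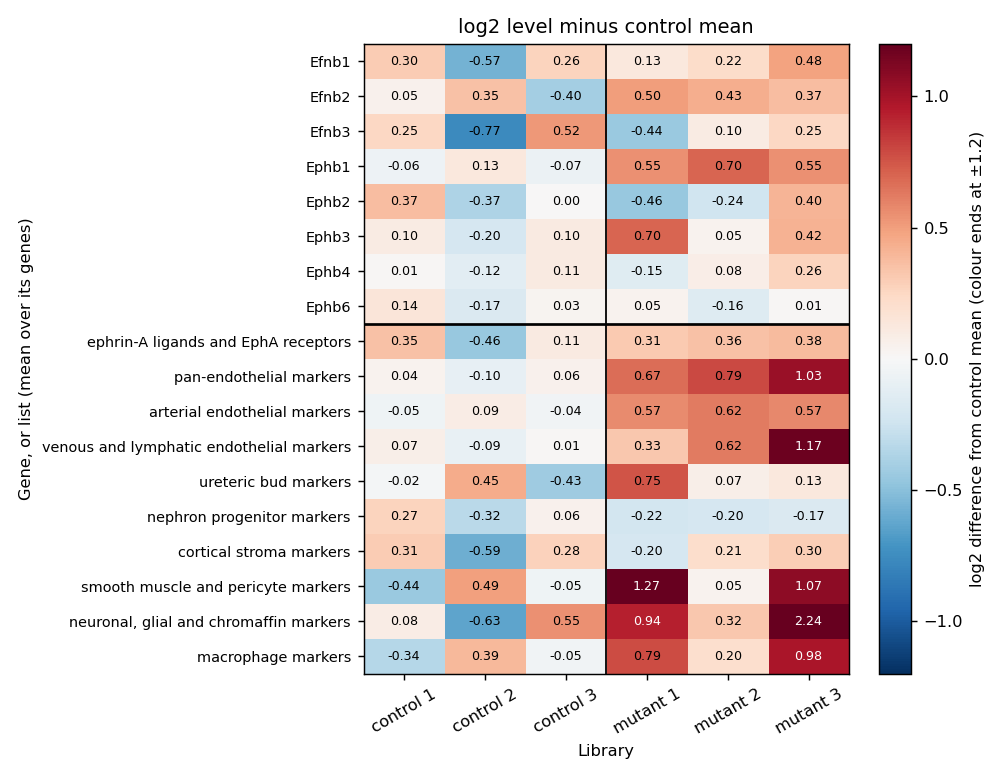
Log2 level minus the control mean in each library, for the 8 genes (upper rows, each 1 gene) and for lists of other genes (lower rows, the mean over the tested genes of a list), with red for higher and blue for lower. The endothelial rows are 0.33 to 1.17 in every mutant, and control 2 is low for Efnb1, Efnb3, Ephb2 and the cortical stroma markers.

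The A class of the family gave no call in limma either. Of 14 ephrin-A ligands and EphA receptors 13 were tested, none passed limma, and the median log2 fold change was 0.24 (0.05 without control 2). Higher mutants with an unadjusted p under 0.05 in limma were seen for 3 of the 13, and for 5.26% of all genes. The smallest p values belonged to Epha8, a receptor at a very low level (0.197 ± 0.072 and 0.527 ± 0.174 FPKM, adjusted p = 0.317 in limma), Efna1, a ligand also made by endothelium (24.9 ± 4.77 and 36.2 ± 5.18 FPKM, adjusted p = 0.370 in limma), Epha1 (2.78 ± 0.197 and 3.99 ± 0.327 FPKM, adjusted p = 0.370 in limma) and Efna4 (42.0 ± 13.7 and 52.8 ± 1.16 FPKM, adjusted p = 0.585 in limma). The first 3 had groups that did not overlap, with the mutants higher, as 7.57% of all genes did. In the authors' deposited table Efna1 had an adjusted p of 0.0192 and was the only one of the 13 called.

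The partners that carry the signal inside the cell gave no call. None of 26 forward signalling partners of the receptors passed limma, 8 had positive fold changes, and the median was -0.09. Without control 2 the median was -0.03, and 4 had an unadjusted p under 0.05 in limma. With all libraries 1 gene had an unadjusted p under 0.05, where 9.63% of all genes did. That gene was Rras, a small GTPase that EphB receptors inhibit (17.2 ± 1.2 and 27.3 ± 3.93 FPKM, groups apart, adjusted p = 0.173 in limma). The next by p were Arhgef15, an exchange factor that is also expressed in endothelium (5.66 ± 1.81 and 7.65 ± 1.03 FPKM), the adaptor Crkl (15.5 ± 6.6 and 9.39 ± 3.17 FPKM) and the scaffold Itsn1 (7.59 ± 0.208 and 6.52 ± 0.766 FPKM, mutants below every control), with adjusted p of 0.541 to 0.566 in limma. Of 12 partners of reverse signalling and ligand shedding none passed limma, none had an unadjusted p under 0.05, and the median was -0.04. Without control 2 that median was 0.08, with 7 of the 12 positive against 4 with all libraries. Ptpn13, a phosphatase that binds the ephrin-B tail, was at 12.7 ± 7.73 and 8.88 ± 0.807 FPKM, with control 2 at 21.6 FPKM and the other 5 libraries at 7.69 to 9.54 FPKM. The PDZ scaffold Grip1 (3.75 ± 0.27 and 3.35 ± 0.642 FPKM) and the rhomboid protease Rhbdl2 (0.627 ± 0.401 and 0.806 ± 0.257 FPKM) had overlapping groups. The authors' deposited table called none of these 38 partners.

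Genes with the course most like Efnb2 and Ephb1 were picked by the root mean square distance, over the 6 libraries, of log2 level relative to the control mean, among 11875 named protein-coding genes whose normalized counts averaged 50 or more. Nearest to Efnb2 were Fzd6, a Wnt receptor gene (0.08), Cmtm8 (0.10) and Hacd4 (0.10), and 102 genes lay within 0.2. Nearest to Ephb1 were Lix1 (0.08), Dock6, an exchange factor for Rac and Cdc42 (0.08), and Pon2 (0.08), with 138 genes within 0.2. None of these 6 genes passed limma. The distances describe these 6 libraries and carry no test.

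Across the series, reads assigned to the genes of the deposited table, as recovered from the FPKM values, numbered 13261588 to 47847925 per library. The targeted gene, Ptch1, was higher in every mutant (23.5 to 35.8 FPKM) than in any control (7.6 to 8.26 FPKM). These values cover all exons and so do not check the deletion itself. Tissue markers showed kidney in every library, with Six2 at 144 ± 40.9 and 123 ± 3.94 FPKM. Skeletal muscle markers, which belong to tissue outside the kidney, summed to 44.4 to 73.6 FPKM in controls and 11.6 to 20.2 FPKM in mutants, and neuronal, glial and chromaffin markers to 6.75 to 11.8 and 9.65 to 25.5 FPKM. Macrophage markers summed to 10.4 to 14.7 FPKM in controls and 15.2 to 26.8 FPKM in mutants, and smooth muscle and pericyte markers to 40.8 to 75.5 and 63.2 to 106 FPKM. Neurons, muscle and leukocytes also express genes of this family, and the part of these cells in the values above was not tested.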

How the data were processed

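Whole-kidney RNA-seq libraries, 6 in all, were analysed, 3 from mutants and 3 from controls. The submitters' processing notes name the build mm10 and, with no role or order, DESeq2, HTSeq 0.6.1p2, STAR 2.6.0c and Trim Galore. The 6 library columns deposited by the authors were taken as FPKM from their values, since no header names the unit. Per the file headers, the authors also deposited a mean normalized signal, a log2 fold change, its standard error and test score, and p-values. FPKM times mean normalized signal over mean FPKM gave normalized counts, of which 100% were whole multiples of 1 read (tolerance 1e-06 of a read).

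Genes that reached a normalized 10 counts in 3 libraries were tested by limma (version 3.58.1, R 4.3.3, trend in the prior variance) on log2(normalized count + 1). Calls had a Benjamini-Hochberg adjusted p under 0.05 over all genes. The added 1 shrinks fold changes of low genes. Single values per library used exact permutation tests. The series' design text names 3 mutant mice and littermate controls, and no label ties a library to a litter. The test was first tested on simulated data, where it recovered 56% of genes changed 2-fold and 89% of those changed 4-fold. Of 159 calls there, 14 were false. Members, lists and tests were chosen with earlier results of these data known. The genes named are the 8 members, list members with the smallest p (up to 4), markers with the highest FPKM (up to 3), the 3 nearest courses to the ligand and receptor with the smallest p, and Ptch1, except 1 list member that is not reported here. Tie1, Esam, Acvrl1, Xist and Ddx3y, and the level relative to endothelial markers, were added after values were seen. Positions are from GENCODE M21 (GRCm38, the assembly of mm10) and promoters from RefSeq GRCm38.p6, which matched 7 of the 8. Alternatives were other pseudocounts, filters, scalings and library weights, a replicate block and leaving out libraries.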

Additional observations from a re-analysis of the deposited data

How the results depend on the processing

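No setting with a different scale, pseudocount or filter called any of the 8 genes. Library weights, whose estimation stopped before convergence, called 2 of them, and 380 of 16933 genes in all. The 2 were Efnb2 (0.66, limma adjusted p = 0.0487) and Ephb1 (0.65, limma adjusted p = 0.0352). The weights were 0.626, 0.333 and 2.51 for controls 1 to 3. Controls 1 and 3, where Ddx3y was low, thus outweighed control 2, and Ddx3y was high in every mutant. Sex and genotype are therefore hard to tell apart in that fit too. Over the other alternatives the adjusted p ranged from 0.132 (without control 2) to 0.858 for Efnb2 and from 0.124 (control 2 and mutant 1 left out) to 0.685 for Ephb1, and neither changed sign. The count of genes called over the whole table was 52 in limma, 17 with the replicate block, 9 to 158 with 1 library left out (158 without control 2), 185 with control 2 and mutant 1 both left out (an alternative chosen after seeing the data) and 732 in the authors' deposited table.

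The replicate numbers did not pair the libraries. Same-numbered deviations correlated at 0.000811, -0.0981 and 0.309, and only control 3 matched best with its own number. With the replicate block none of the 8 genes was called.

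Signs changed for 5 genes, among them the 3 with a fold change of -0.10 to -0.03. With 1 library left out Efnb1 ranged from -0.00865 (without control 2) to 0.43, Efnb3 from -0.42 to 0.23, Ephb2 from -0.35 to 0.0857, Ephb4 from -0.0308 (without mutant 3) to 0.17 and Ephb6 from -0.12 to 0.0377. The sign of Efnb3 turned without control 1, control 3 or mutant 1 (0.09, 0.23 and 0.17), that of Ephb2 without control 1 or mutant 1 (0.0857 and 0.0821) and that of Ephb6 without control 1 or mutant 2 (0.0377 and 0.0288). With library weights Ephb2 was 0.0257. In the authors' deposited table Efnb3 was 0.22, Ephb2 0.19 and Ephb6 0.0605. Judged by a least squares fit, that table weighs the libraries differently from a comparison of group means. Over 9950 genes with at least 200 normalized counts in every library, its fold changes followed a weighted sum of library log2 levels (r squared 0.999) with weights of 0.0039, -0.567 and -0.437 for controls 1 to 3 and 0.286, 0.278 and 0.435 for mutants 1 to 3, so that control 1 counted for almost nothing. The sources used here do not give its model. Some differences kept their sign but moved far. The log2 ligand sum went from 0.23 to 0.00745 without control 2 and to 0.35 without control 1, the log2 receptor sum from 0.11 to 0.0212 without mutant 3 and to 0.17 without mutant 1, the Efnb2 to Ephb4 log2 ratio from 0.37 to 0.11 without control 3 and to 0.60 without control 2, and Efnb2 relative to endothelial markers from -0.40 to -0.17 without control 2 and to -0.63 without control 3. For Ephb4 relative to those markers the range was -0.79 to -0.74. The planned count test in edgeR was not run. In its place limma voom on the whole reads recovered from the FPKM values (added after seeing the data) called 50 genes and none of the 8.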
